A study of Mus musculus with 17 samples.

Results

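Complex I of the respiratory chain is assembled from subunits made in 2 genomes, and the mtDNA encodes 7 of them. The 6 whose mRNAs come from the heavy-strand transcript, mt-Nd1, mt-Nd2, mt-Nd3, mt-Nd4l, mt-Nd4 and mt-Nd5, were examined here gene by gene in hearts of mice with somatic mtDNA mutagenesis. They were chosen as the protein-coding rows of the count table on chromosome MT and its plus strand whose symbol begins with mt-Nd, which gave 6 of 56748 genes. All 6 passed the filter on low counts, among 16195 genes tested. mt-Nd6, the remaining complex I gene of the mtDNA, is read from the opposite strand and serves here as a comparison.

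The data were bulk RNA-seq counts from heart tissue of mice aged 12 to 16 months, with 8 Ctrl and 9 hMut hearts. The hMut mice were Polg iMut/iMut; +/Ckmm-cre. The iMut allele carries a floxed wild-type Polg cassette ahead of a mutated exon, and its excision by cre lets a proofreading-deficient mtDNA polymerase be made. Ckmm-cre is driven by the muscle creatine kinase promoter, which directs excision in the heart to cardiomyocytes. The genotype behind the Ctrl label is not spelled out for each library, and no treatment was given to either group. Each library held between 32915159 and 46486964 counts. Genes on MT took 23.5% to 30.9% of the counts in Ctrl and 15.9% to 23.0% in hMut hearts. All 18 cardiomyocyte markers were detected in both groups, with a summed level of 67847 to 82162 normalized CPM (counts scaled to a library of fixed size) in Ctrl and 50652 to 80382 CPM in hMut hearts.

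Polg itself was higher in hMut hearts. Its lowest, median and highest levels were 27.1, 32.0 and 47.2 CPM in Ctrl and 47.0, 59.6 and 65.1 CPM in hMut hearts, with 8 of 9 hMut hearts above every Ctrl heart (log2 fold change 0.74 ± 0.10 SE, edgeR adjusted p = 4.48e-04). Only hMut replicate 6, at 47.0 CPM, lay within the Ctrl range. Gene counts do not read the exchanged base, so they do not show which allele was expressed. Excision of the cassette also changes which copy of the exons is transcribed, and the part of this in the Polg difference was not tested.

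The mtDNA is transcribed as long precursors from both strands. In the precursor read as the heavy-strand transcript, most mRNAs are set between tRNAs, and cutting out the tRNAs releases them. The core subunits ND1 to ND6 and ND4L lie in the membrane arm of complex I, which pumps protons, and the nuclear genome encodes the other subunits. Mouse heart is rich in mitochondria, and mtDNA mRNAs make up much of its polyadenylated RNA. In the reference mtDNA (GRCm39, 16299 bases), mt-Nd1 runs from 2751 to 3707, mt-Nd2 from 3914 to 4951, mt-Nd3 from 9459 to 9806, mt-Nd4l from 9877 to 10173, mt-Nd4 from 10167 to 11544 and mt-Nd5 from 11742 to 13565, each as 1 exon without introns.

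Their sequences bear on which values can be read on their own. A stretch of nuclear chromosome 1 (chr1:24650616-24655269, minus strand) copies positions 6390 to 11042 of the mtDNA with 2 differing bases and 1 gap base over 4653 bases. All 297 bases of mt-Nd4l and 347 of the 348 bases of mt-Nd3 are identical there, as are 876 of the 1378 bases of mt-Nd4, and the annotation lists the copies as Gm10222, Gm28438 and Gm28439. The only substitution inside a member is T9461C, at position 3 of mt-Nd3, written as the mtDNA base, its mtDNA position and the chromosome 1 base. mt-Nd1, mt-Nd2 and mt-Nd5 lie outside the stretch. BLAST found no match of mt-Nd1 at 95% identity or more, whereas mt-Nd2 and mt-Nd5 had partial nuclear copies at 96.7% (Gm13339) and 95.2% identity (Gm4076). A further match of mt-Nd2, 102 bases on chromosome 5, had 97.1% identity. The first sequences below are shown because they mark where mt-Nd3 differs from its copy and where the copy of mt-Nd4 stops. In mt-Nd3 the start codon is in capitals, and its last base is the substituted one. In the pair from mt-Nd4 and chromosome 1, lower case marks the shared bases and capitals the bases past the end of the copy.
mt-Nd3, chrMT:9459-9488, plus strand: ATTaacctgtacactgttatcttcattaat
mt-Nd4, chrMT:11028-11057, plus strand: tactcctcagttagcCACATAGCACTTGTT
chromosome 1, chr1:24650601-24650630, minus strand: tactcctcagttagcTAGAGAAAGTAGCCA

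Reads within the identical stretch fit both places equally well, and how such reads were counted is not given in the sources used here. The values of mt-Nd3 and mt-Nd4l, and in part of mt-Nd4, are therefore uncertain and are given below beside those of their copies. Neighbouring members also share bases. mt-Nd4l and mt-Nd4 overlap by 7 bases on the same strand, as part of a shared mRNA. mt-Nd5 and mt-Nd6 overlap by 14 bases on opposite strands. The overlaps are in capitals in the next sequences, shown because reads there can fit both genes. For mt-Nd5 and mt-Nd6 this depends on the strand setting of the counting, which is not given.
mt-Nd4l/mt-Nd4, chrMT:10159-10181, plus strand: ctactacaATGCTAAaaattatt
mt-Nd5/mt-Nd6, chrMT:13544-13573, plus strand: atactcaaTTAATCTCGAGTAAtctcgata
The start codon of mt-Nd4 and the stop codon of mt-Nd4l can both be read in the first overlap. mt-Nd4 itself ends on a lone T, in capitals below, which in the mature mRNA becomes a stop codon once the poly(A) tail is added.
mt-Nd4, chrMT:11515-11544, plus strand: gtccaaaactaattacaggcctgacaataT

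The question of the comparison was how the level of each mRNA differed between hMut and Ctrl hearts. Of the 6 mRNAs, 5 fell in hMut hearts in an edgeR fit over all genes (adjusted p under 0.05), namely mt-Nd2, mt-Nd3, mt-Nd4l, mt-Nd4 and mt-Nd5. mt-Nd1 had a log2 fold change of -0.35 ± 0.14 (SE) and did not pass. Across all genes tested, 4.62% were called in either direction and 1.14% were called lower. In this bulk tissue, fewer cardiomyocytes and less mRNA per cardiomyocyte cannot be told apart.

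**Figure D1:**
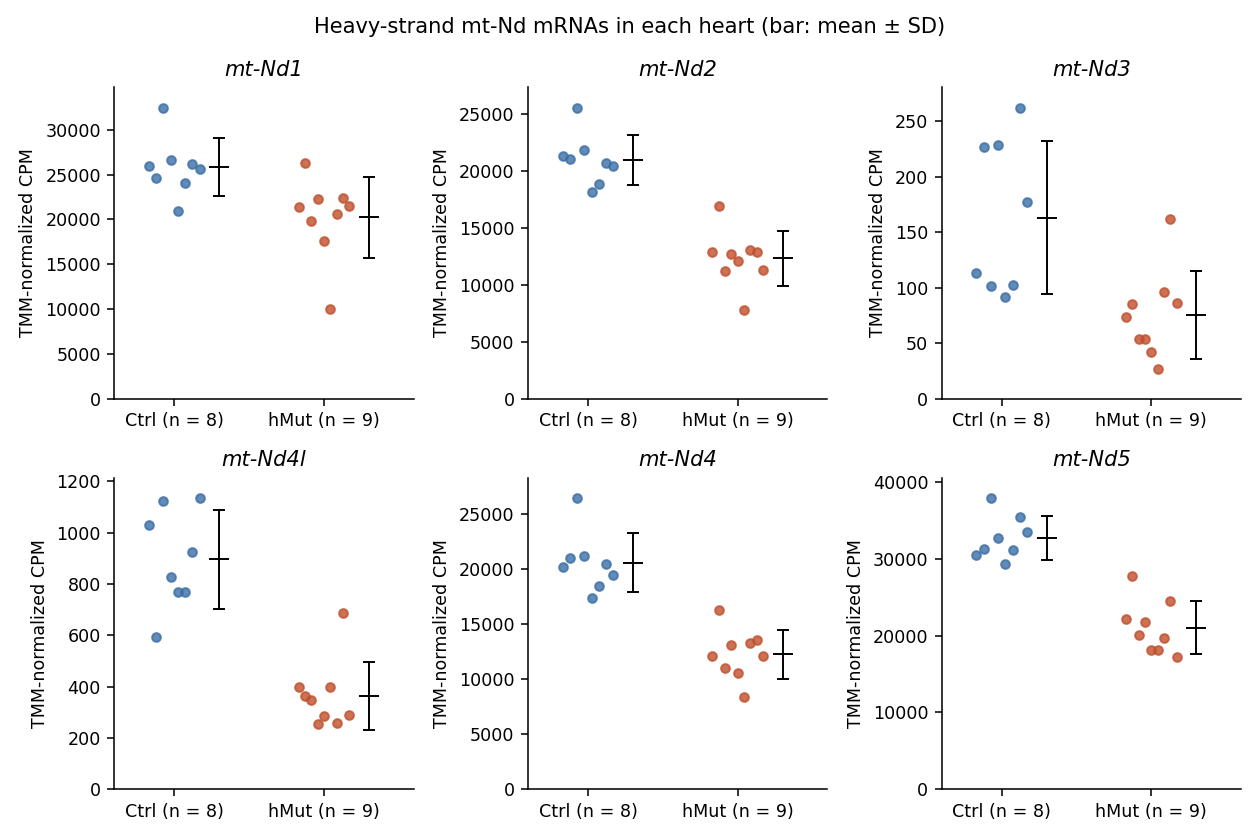
Level of each heavy-strand mt-Nd mRNA in TMM-normalized CPM (vertical axis from 0), 1 point per heart, with Ctrl hearts in blue, hMut hearts in red and bars for the mean ± SD. The groups do not overlap for mt-Nd2, mt-Nd4 and mt-Nd5, whereas for mt-Nd1 5 of the 9 hMut hearts lie within the Ctrl range.

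mt-Nd2 encodes a membrane-arm core subunit. Its lowest, median and highest levels were 18188, 20891 and 25590 CPM in Ctrl hearts and 7800, 12683 and 16947 CPM in hMut hearts. No hMut heart reached the lowest Ctrl heart, and the hMut mean was 58.7% of the Ctrl mean (log2 fold change -0.77 ± 0.12 SE, edgeR adjusted p = 8.83e-04).

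mt-Nd4, whose product is one of the antiporter-like subunits, spanned 17355 to 26452 CPM in Ctrl (median 20339) and 8351 to 16310 CPM in hMut hearts (median 12139). The groups were again apart, with a mean of 59.6% of Ctrl (log2 fold change -0.75 ± 0.12 SE, edgeR adjusted p = 1.04e-03). mt-Nd5 encodes the antiporter-like subunit at the far end of the membrane arm. It ranged from 29267 to 37867 CPM in Ctrl (median 31992) and from 17244 to 27782 CPM in hMut hearts (median 20052), also without overlap. Its mean was 64.3% of Ctrl (log2 fold change -0.64 ± 0.10 SE, edgeR adjusted p = 1.47e-03). Every hMut heart lay below every Ctrl heart in 10 of all genes tested (0.0617%), and 3 of these 10 were mt-Nd2, mt-Nd4 and mt-Nd5. The fall was shared with other mtDNA transcripts, since 6 of the 10 genes lie on MT, mt-Cytb among them, and edgeR called 16 of 31 genes tested on MT and 9 of the 13 mtDNA mRNAs lower.

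mt-Nd4l encodes a small core subunit and had the largest fold change of the 6. It spanned 592 to 1134 CPM in Ctrl (median 875) and 253 to 685 CPM in hMut hearts (median 347), and the mean was 40.7% of Ctrl (log2 fold change -1.30 ± 0.18 SE, edgeR adjusted p = 3.96e-04). Only hMut replicate 8, at 685 CPM, lay within the Ctrl range. Its copy Gm10222 on chromosome 1 spanned 188 to 297 CPM in Ctrl and 106 to 191 CPM in hMut hearts and fell as well (log2 fold change -0.68 ± 0.12 SE, edgeR adjusted p = 3.84e-03). With the counts of both rows summed, mt-Nd4l changed by -1.14 (log2, edgeR adjusted p = 7.63e-05). Any reads counted in neither row are missing from this sum.

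mt-Nd3, the shortest but one of the 6 and the source of a subunit at the junction of both arms, was the most variable. Its coefficient of variation was 42.4% in Ctrl and 52.5% in hMut hearts, against 8.64% to 13.1% for mt-Nd1, mt-Nd2, mt-Nd4 and mt-Nd5 in Ctrl. The Ctrl hearts spanned 92.0 to 262 CPM (median 145) and the hMut hearts 26.6 to 162 CPM (median 73.1). Here 7 of 9 hMut hearts were below every Ctrl heart, and hMut replicates 7 and 8 lay within the Ctrl range. mt-Nd3 passed narrowly (log2 fold change -1.11 ± 0.30 SE, edgeR adjusted p = 0.0441). The call held in 5 of 17 edgeR fits that left out 1 heart, with edgeR adjusted p between 0.0104 without hMut replicate 8 and 0.0923 without Ctrl replicate 7, and it was lost without hMut replicates 6 and 9 (adjusted p = 0.0713) and without a filter on low counts (adjusted p = 0.0538). Its copy Gm28438 held more counts per kilobase than mt-Nd3 in both groups (835 ± 641 against 468 ± 198 CPM per kb in Ctrl, 447 ± 96.0 against 216 ± 114 in hMut hearts, mean ± SD). The Gm28438 level in Ctrl replicate 8 was 817 CPM, against 155 to 299 CPM in the other Ctrl hearts. With both rows summed, mt-Nd3 changed by -0.98 (log2, edgeR adjusted p = 0.0286), again without any reads counted in neither row.

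mt-Nd1, which encodes the core subunit next to the quinone-binding site, was the mildest of the 6. Its lowest, median and highest levels were 20891, 25821 and 32461 CPM in Ctrl and 9989, 21417 and 26271 CPM in hMut hearts. 4 of 9 hMut hearts lay below every Ctrl heart and 5 within the Ctrl range (mean 78.3% of Ctrl, edgeR adjusted p = 0.138). The lowest value by far belonged to hMut replicate 6, and without it the log2 fold change was -0.26 (adjusted p = 0.114). limma-voom with quality weights called mt-Nd1 lower (log2 fold change -0.31, adjusted p = 0.0233), and the other 28 alternative fits did not.

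**Figure D2:**
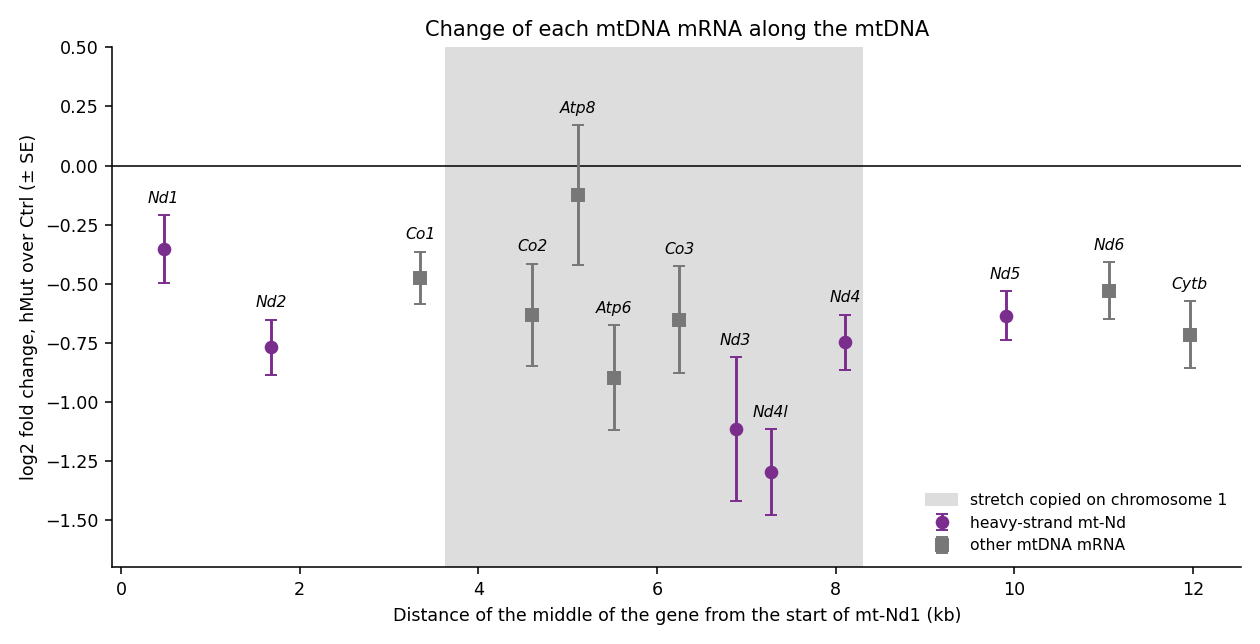
Log2 fold change of the 13 mtDNA mRNAs in hMut over Ctrl hearts (vertical axis, ± SE from the edgeR fit) against the distance of the middle of each gene from the start of mt-Nd1 in kilobases. Purple circles are the heavy-strand mt-Nd mRNAs, grey squares the other mtDNA mRNAs, and the grey band is the stretch copied on chromosome 1. mt-Nd1, the first gene, has a change of -0.35 and mt-Nd5, the last of the 6, one of -0.64, with mt-Nd3 and mt-Nd4l lowest inside the band.

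Along the mtDNA the changes followed no steady gradient. From mt-Nd1 through mt-Nd2, mt-Nd3, mt-Nd4l and mt-Nd4 to mt-Nd5 the log2 fold changes were -0.35, -0.77, -1.11, -1.30, -0.75 and -0.64. The steepest pair were those of the members that lie whole in the stretch shared with chromosome 1. The other mRNAs lying whole in it, mt-Co2, mt-Atp8, mt-Atp6 and mt-Co3, had log2 fold changes of -0.63, -0.13, -0.90 and -0.65. The part of the shared sequence in these changes was not tested. The changes of mt-Nd2, mt-Nd4 and mt-Nd5 lay between -0.77 and -0.64, with standard errors of 0.10 to 0.12. mt-Nd6 on the opposite strand, for which reads from the antisense transcript cannot be told apart because the strand setting of the counting is not given, also fell (4751 ± 1012 against 6860 ± 938 CPM, mean ± SD, log2 fold change -0.53 ± 0.12 SE, edgeR adjusted p = 0.0179).

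Per length, the members differed widely in level. In Ctrl hearts mt-Nd1 was highest at 26971 ± 3393 CPM per kb (mean ± SD, n = 8), followed by mt-Nd2 at 20232 ± 2142, mt-Nd5 at 17934 ± 1550, mt-Nd4 at 14943 ± 1963, mt-Nd4l at 3015 ± 644 and mt-Nd3 at 468 ± 198 CPM per kb. The ranges of mean ± SD of mt-Nd2 and mt-Nd5 overlapped, but within a heart mt-Nd5 was below mt-Nd2 in all 8 Ctrl hearts. In hMut hearts the means of this pair were 11876 ± 2291 and 11539 ± 1867 CPM per kb (n = 9), and mt-Nd5 was above mt-Nd2 in 3 of 9 hearts. The low levels of mt-Nd3 and mt-Nd4l lay beside those of mt-Co2, mt-Atp8, mt-Atp6 and mt-Co3, the other mRNAs inside the shared stretch, at 723 to 5068 CPM per kb in Ctrl. mt-Nd4l and mt-Nd4 are carried by a shared mRNA, and the rest of mt-Nd4 lies outside the stretch. The level of mt-Nd4 was divided by all its 1378 bases, of which 876 are identical to chromosome 1. Its place in the order above is therefore uncertain. The part of the shared sequence in these levels was not tested.

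**Figure D3:**
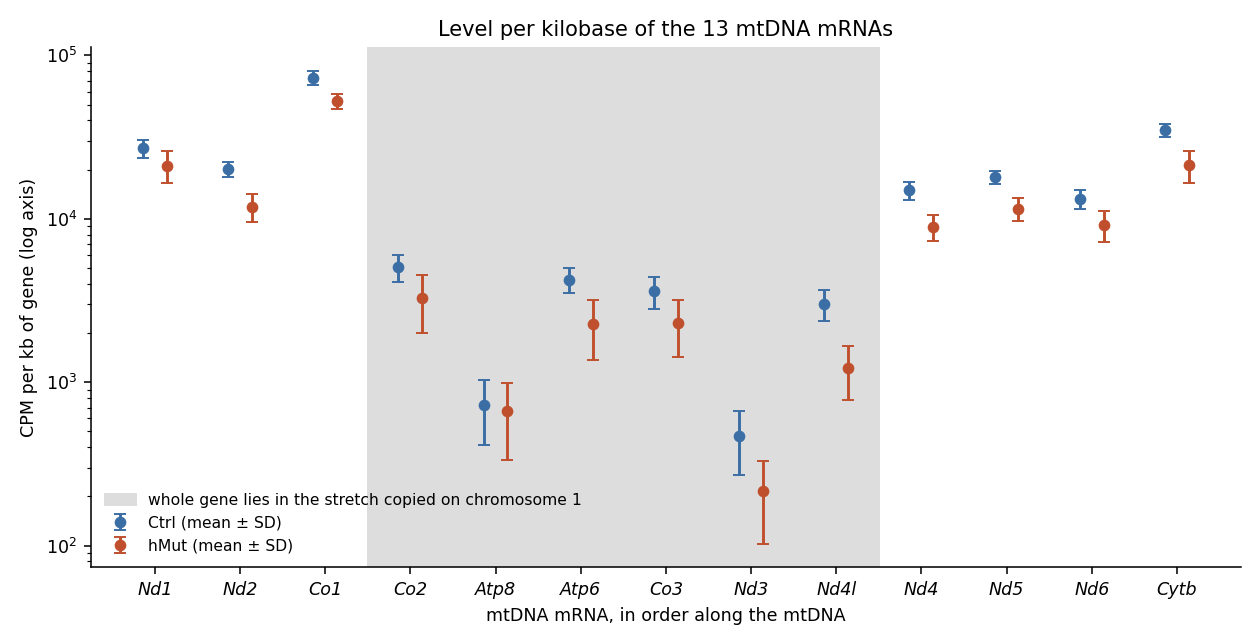
Level of the 13 mtDNA mRNAs in CPM per kilobase (logarithmic vertical axis, mean ± SD over 8 Ctrl hearts in blue and 9 hMut hearts in red) in their order along the mtDNA. The grey band marks the mRNAs that lie whole in the stretch copied on chromosome 1, where all 6 levels are below those of the 7 other mRNAs.

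Ratios between members within a heart do not depend on how libraries are scaled, and they were used to ask whether one member changed more than another. Of 15 pairs of members, 4 differed between groups at an adjusted p under 0.05 over 78 pairs of mtDNA mRNAs (exact permutation of the group labels over 24310 splits, 2-sided), against 17.9% of all 78. The ratio of mt-Nd2 to mt-Nd1 per kilobase was 0.724 to 0.803 in Ctrl (median 0.745) and 0.487 to 0.720 in hMut hearts (median 0.554). All 9 hMut hearts were below all Ctrl hearts (log2 difference -0.40, exact permutation p = 8.23e-05, adjusted p = 2.14e-03).

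The ratio of mt-Nd4 to mt-Nd1 gave the same picture except in 1 heart. It was 0.527 to 0.594 in Ctrl (median 0.548) and 0.386 to 0.581 in hMut hearts (median 0.416), and only hMut replicate 6 lay within the Ctrl range (log2 difference -0.37, exact permutation adjusted p = 5.88e-03). The counts of mt-Nd4l also fell more than those of mt-Nd1 and mt-Nd5. The median ratio of mt-Nd4l to mt-Nd1 was 0.112 in Ctrl and 0.0524 in hMut hearts (log2 difference -0.95, exact permutation adjusted p = 0.0126). That of mt-Nd5 to mt-Nd4l was 6.23 and 9.76 (log2 difference 0.69, exact permutation adjusted p = 0.0120). With the nuclear copies summed, these differences were -0.78 (exact permutation adjusted p = 0.0120) and 0.51 (adjusted p = 8.20e-03). Any reads counted in neither row are missing from these sums. The ratio of mt-Nd4 to mt-Nd4l, which share an mRNA, had medians of 4.97 in Ctrl and 7.93 in hMut hearts. It did not pass (log2 difference 0.58, exact permutation adjusted p = 0.0770). The part of the shared sequence in these ratios was not tested.

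The 4 calls held in each of 17 fits that left out 1 heart. None of the 15 pairs passed the exact test when medians were compared (lowest adjusted p = 0.0642) or when differences were taken within replicate numbers (lowest adjusted p = 0.0677), a test of 8 pairs whose smallest possible p is 0.00781. Without hMut replicate 6, 7 pairs passed, the mt-Nd5 to mt-Nd1 ratio among them (log2 difference -0.36, exact permutation adjusted p = 1.52e-03, against -0.26 and 0.132 with it). mt-Nd4 and mt-Nd2 kept close to each other, with median ratios of 0.735 in Ctrl and 0.764 in hMut hearts (log2 difference 0.028, exact permutation adjusted p = 0.589).

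**Figure D4:**
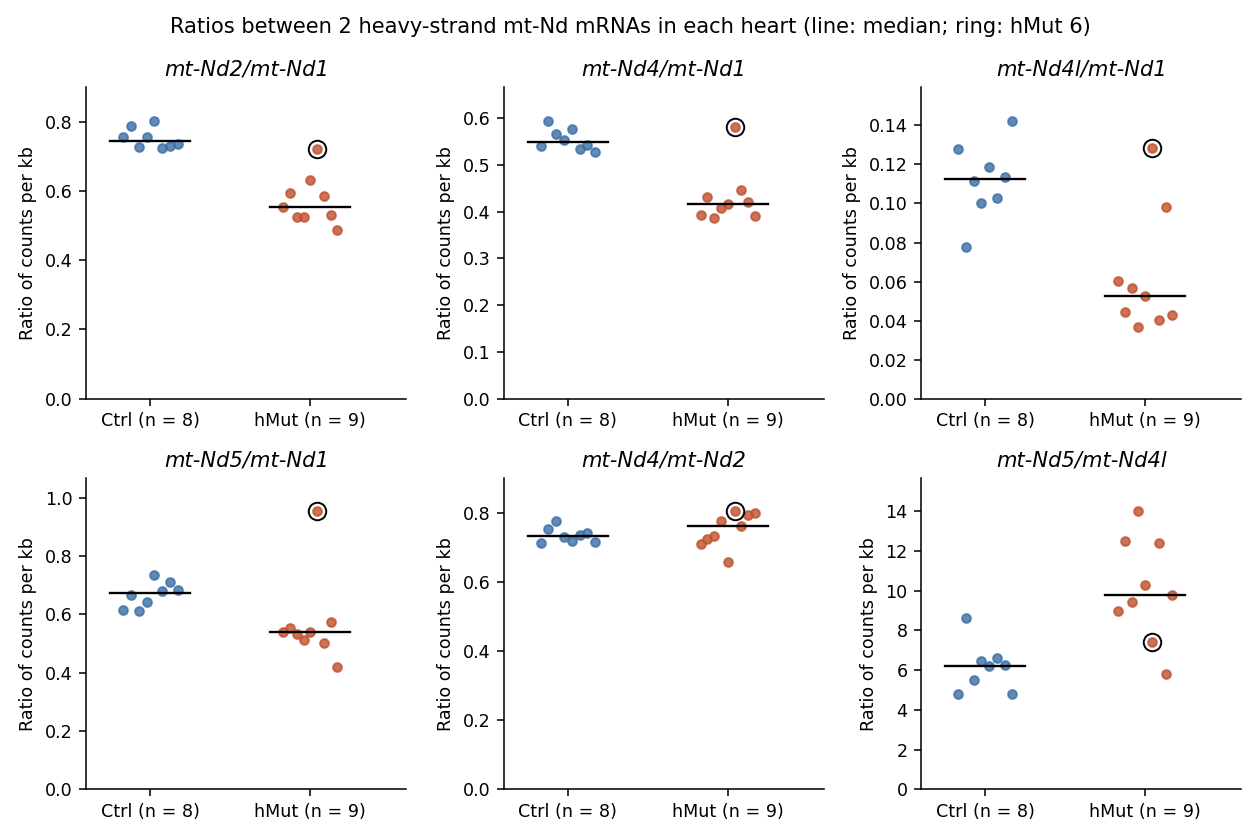
Ratio of counts per kilobase between 2 heavy-strand mt-Nd mRNAs (vertical axes from 0), 1 point per heart, with Ctrl hearts in blue, hMut hearts in red, lines for medians and a ring around hMut replicate 6. For the mt-Nd2 to mt-Nd1 ratio the 9 hMut hearts lie below the 8 Ctrl hearts, and in the mt-Nd5 to mt-Nd1 panel hMut replicate 6 stands at 0.954, above every Ctrl heart, while the other hMut hearts lie below them.

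Shares of the counts on the 13 mtDNA mRNAs set the members beside the rest of the mitochondrial mRNAs. Of the 13, mt-Co2, mt-Atp8, mt-Atp6, mt-Co3, mt-Nd3 and mt-Nd4l lie whole in the stretch shared with chromosome 1, and mt-Co1 and mt-Nd4 in part. How shared reads were counted thus bears on every share. The values are shares of the counts on the 13 genes and need not follow the amounts of mRNA. Together the 6 members held 37.1% to 38.2% of these counts in Ctrl (median 37.3%) and 33.7% to 38.0% in hMut hearts (median 36.7%). Within that sum the shares of the members moved in opposite directions, although the mean level of each was lower in hMut hearts. The share of mt-Nd1 rose from 9.55 ± 0.32% to 11.0 ± 1.38% (mean ± SD, exact permutation adjusted p = 0.0250 over 13 mRNAs), with 8 of 9 hMut hearts above and hMut replicate 6, at 7.52%, below every Ctrl heart.

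The shares of mt-Nd4, mt-Nd2 and mt-Nd4l fell. mt-Nd4 went from 7.62 ± 0.31% to 6.71 ± 0.26%, with no hMut heart reaching a Ctrl heart (exact permutation p = 4.11e-05, the smallest this design can give, adjusted p = 5.35e-04). mt-Nd2 went from 7.79 ± 0.20% to 6.74 ± 0.51% (adjusted p = 1.25e-03) and mt-Nd4l from 0.331 ± 0.059% to 0.203 ± 0.072% (adjusted p = 6.10e-03, both exact permutation). The share of mt-Nd5 was 12.2 ± 0.52% in Ctrl and 11.6 ± 1.10% in hMut hearts (adjusted p = 0.323), a difference of -0.55 percentage points that was -0.33 without hMut replicate 9 and -0.81 without hMut replicate 6 (adjusted p = 0.488 and 0.0574, all exact permutation). That of mt-Nd3 was 0.0604 ± 0.0246% and 0.0402 ± 0.0179% (adjusted p = 0.113, exact permutation), and it passed without hMut replicate 8 (exact permutation adjusted p = 0.0407). Of all 13 shares, 46.2% passed.

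The rise in the mt-Nd1 share rested in part on single hearts. It did not pass without hMut replicate 9 (1.28 percentage points, exact permutation adjusted p = 0.0508). The exact test within replicate numbers leaves out the same heart, so its difference was the same (adjusted p = 0.114) and adds no separate check. The largest gain in share was that of mt-Co1, which encodes the catalytic core of complex IV, from 41.7 ± 0.35% to 44.8 ± 3.26% (exact permutation adjusted p = 1.25e-03). This gain of 3.12 percentage points was 2.06 without hMut replicate 6 (exact permutation adjusted p = 6.73e-04), whose mt-Co1 share was 53.3%. The level of mt-Co1 still fell, with a mean of 112532 CPM in Ctrl and 80981 CPM in hMut hearts (log2 fold change -0.47 ± 0.11 SE, edgeR adjusted p = 0.0196). Shares are relative, so a gain here means a smaller fall than that of the mtDNA mRNA counts together. Relative to mt-Co1, per kilobase, mt-Nd4 changed by -0.28, mt-Nd5 by -0.17 and mt-Nd4l by -0.86 on the log2 scale (exact permutation adjusted p = 2.14e-03, 0.0120 and 7.84e-03). The ratio of mt-Co1 to mt-Nd2 changed by 0.31 (exact permutation adjusted p = 2.41e-03), so mt-Nd2 fell more than mt-Co1 as well. mt-Nd3 relative to mt-Co1 had a log2 difference of -0.69 and did not pass (exact permutation adjusted p = 0.134). The ratio of mt-Co1 to mt-Nd1 differed by -0.09 and did not pass (exact permutation adjusted p = 0.627), but it was -0.19 without hMut replicate 6 (exact permutation adjusted p = 1.52e-03).

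The hearts differed in how far their members fell. Expressed against the Ctrl mean on the log2 scale, hMut replicate 2 was the mildest in mt-Nd1, mt-Nd2, mt-Nd4 and mt-Nd5, at 0.03, -0.31, -0.34 and -0.24. hMut replicate 8 had the mildest change in mt-Nd3 (-0.01) and mt-Nd4l (-0.39), while its mt-Nd1, mt-Nd2, mt-Nd4 and mt-Nd5 were at -0.20, -0.70, -0.60 and -0.42. hMut replicate 6 was the lowest in mt-Nd1, mt-Nd2, mt-Nd3 and mt-Nd4, at -1.37, -1.43, -2.61 and -1.30, whereas its mt-Nd5 was at -0.85.

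In each of hMut replicates 3, 5 and 6 all 6 members lay below every Ctrl heart. In replicates 1, 2, 4, 7 and 9 this held for 5 and in replicate 8 for 3. The matching share of all genes tested was not computed for single hearts, so these counts are descriptions only. The summed level of 10 myeloid markers was 1339 CPM in hMut replicate 6, against 235 to 365 CPM in Ctrl hearts and a median of 337 CPM in hMut hearts, with no marker at 0 in all hearts, and its nuclear complex I score was the lowest of all hearts (-0.58, log2 relative to the Ctrl mean). Of the hMut hearts, replicate 6 also had the highest fibroblast and lymphoid sums, at 2858 and 71.9 CPM. The Ctrl hearts spanned 1839 to 2223 and 3.01 to 51.2 CPM in these lists. Its endothelial sum was the lowest of the hMut hearts (1247 CPM), whereas the lowest cardiomyocyte sum was that of hMut replicate 9. The part of other cells in the values of hMut replicate 6 was not tested. In the cardiomyocyte list 0 of 18 genes passed in edgeR, 12 had an unadjusted p under 0.05, and DESeq2 and limma-voom called 7 and 9 of them lower. edgeR also called 7 lower without hMut replicate 2, 2 without hMut replicate 1, and 1 without hMut replicate 8 or Ctrl replicate 3. The part of a lower cardiomyocyte share in the values of the members was not tested. With library sizes taken from this list the 5 members called were called again in edgeR (log2 fold changes between -0.40 and -1.05, mt-Nd1 -0.12, median of all genes tested 0.27).

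The nuclear partners of the members were set beside them. Of 37 nuclear genes for complex I subunits, 0 passed in edgeR, with a median log2 fold change of -0.13 against 0.00 over all genes tested. The smallest edgeR adjusted p belonged to Ndufs1, the large iron-sulfur subunit of the matrix arm (log2 fold change -0.27 ± 0.10 SE, adjusted p = 0.125), followed by Ndufb5 (-0.15, 0.145) and Ndufb9 (-0.15, 0.163). DESeq2 also called 0, whereas limma-voom called 1, Ndufs1 (-0.23, adjusted p = 0.0244). At an unadjusted p under 0.05, 5 of the 37 passed in edgeR. The direction of the median depended on scaling, since it was 0.11 with cardiomyocyte library sizes and 0.02 without TMM factors, and it was -0.03 without hMut replicates 6 and 9.

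Complex I assembly factors, which build the enzyme without staying in it, showed 0 calls of 19 tested, with a median of -0.10. Ndufaf7 (log2 fold change -0.16, edgeR adjusted p = 0.122), Dmac2 (-0.15, 0.137) and Nubpl (-0.14, 0.204) came closest. Genes for mtDNA transcription and mRNA stability gave 0 calls of 25 and a median of -0.08. Those with the smallest adjusted p were Elac2, which cuts tRNA 3′ ends (0.13, 0.108), Fastkd1 (-0.19, 0.108) and Lrpprc, which stabilises mtDNA mRNAs (-0.21, 0.134). limma-voom called 1 gene of this list, Fastkd1 (-0.17, adjusted p = 0.0421). edgeR called Fastkd1 without hMut replicate 1 (-0.23, adjusted p = 0.0271) and Lrpprc without hMut replicate 2 (-0.25, adjusted p = 0.0428). At an unadjusted edgeR p under 0.05, 2 assembly factors and 6 genes of the second list passed, and DESeq2 called 0 in both lists. These medians also turned with the scaling, to 0.15 and 0.18 with cardiomyocyte library sizes, where 10 genes of each list were called higher, and to 0.06 and 0.08 without TMM factors.

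A list of mitochondrial stress response genes joins enzymes and transporters of amino acid and one-carbon metabolism with regulators such as Atf4 and Ddit3 and secreted factors such as Gdf15 and Fgf21. In hMut hearts 22 of its 25 genes rose and 0 fell, with a median log2 fold change of 1.62. Mthfd2, a mitochondrial folate enzyme (4.07 ± 0.30 SE, edgeR adjusted p = 3.82e-07), Asns, asparagine synthetase (3.56 ± 0.32 SE, 4.56e-06), and Psat1, an enzyme of serine synthesis (2.74 ± 0.25 SE, 4.56e-06), led the list. The list was chosen with its rise known, so its direction is no independent evidence, and it was used here as a scale of the response in each heart.

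Within the 9 hMut hearts, hearts with a higher stress score had less mt-Nd5. The score, a mean of log2 levels relative to Ctrl, ran from 0.71 in hMut replicate 2 to 2.71 in replicate 9, while mt-Nd5 ran from 27782 to 17244 CPM in the same hearts (Pearson's r = -0.92, exact permutation p = 5.21e-04, adjusted p = 0.0271 over 52 correlations; Spearman's rho = -0.97, exact permutation p = 1.65e-04, adjusted p = 8.60e-03). Without replicates 2 and 9, the hearts farthest from the median score, r was -0.80 over 7 hearts (exact permutation p = 0.0292, adjusted p = 0.225). Both measures came from the same libraries. Of the hMut hearts, replicates 2 and 9 also had the highest and lowest summed cardiomyocyte markers, at 80382 and 50652 CPM. The part of the cardiomyocyte share in this relation was not tested. For the other members r lay between -0.34 and -0.69 (lowest adjusted p = 0.140, exact permutation), and whether mt-Nd5 differed from them was not tested. mt-Nd6, which overlaps mt-Nd5 on the opposite strand, also had lower levels at higher scores (r = -0.80, adjusted p = 0.103, and rho = -0.92, adjusted p = 0.0341, both exact permutation). In the 8 Ctrl hearts r for mt-Nd5 was 0.36 (exact permutation p = 0.375).

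**Figure D5:**
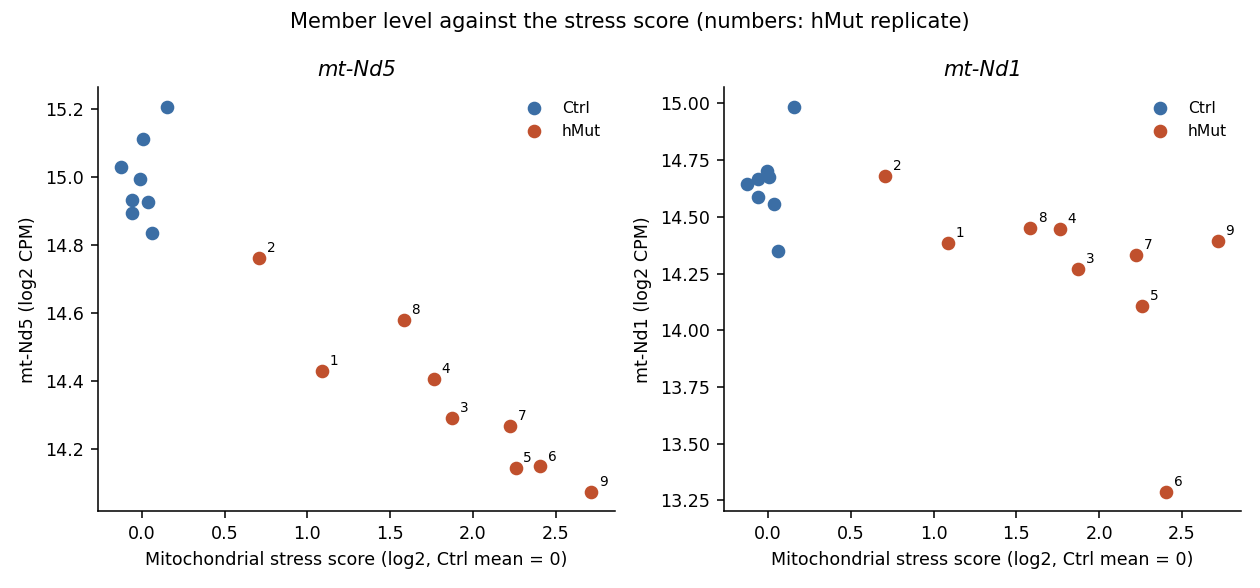
Level of mt-Nd5 (left) and mt-Nd1 (right) in log2 CPM against the mitochondrial stress score of each heart, in log2 units with the Ctrl mean at 0, for Ctrl hearts in blue and hMut hearts in red with their replicate numbers. mt-Nd5 declines from replicate 2 at a score of 0.71 to replicate 9 at 2.71, and in mt-Nd1 replicate 6 lies far below the other hearts.

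The relation to the nuclear complex I score could not be pooled over hMut hearts, because replicates 6 and 9 had scores of -0.58 and -0.48 and the others -0.13 to 0.14. Within the other 7 hearts, r was 0.80 for mt-Nd1, 0.80 for mt-Nd2, 0.80 for mt-Nd4 and 0.68 for mt-Nd5, 0.19 for mt-Nd3 and -0.14 for mt-Nd4l. None passed after adjustment (lowest adjusted p = 0.225, exact permutation).

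By likeness of pattern over the 17 hearts, measured as Pearson's r between deviations from the group means, the nearest of 8625 genes outside MT with a mean of at least 10 CPM was Gm28439 (r = 0.84), the chromosome 1 copy of part of mt-Nd4. Btbd1 (0.83), Atcayos (0.82), Arl1 (0.82) and Ramac (0.81) came next. Without hMut replicates 6 and 8 their r was 0.78, 0.66, 0.59, 0.83 and 0.68. Of these 5, only Gm28439 passed the test between groups, falling from 520 ± 138 to 307 ± 69.5 CPM (log2 fold change -0.76 ± 0.16 SE, edgeR adjusted p = 9.46e-03). These correlations are descriptions, since the genes were picked for them.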

How the data were processed

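RNA-seq libraries of 17 hearts were analysed. The authors selected mRNA on poly-T beads, aligned reads with HISAT2 2.2.1 to GRCm39 and deposited whole-number counts per gene from featureCounts 2.0.6, without normalization. The counting of multi-mapped reads and the strand setting are not given in the sources used here.

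Counts were filtered with filterByExpr, scaled with TMM and tested with edgeR 4.0.16 (quasi-likelihood F-test, hMut against Ctrl, Benjamini-Hochberg over 16195 genes, threshold 0.05). CPM are TMM-normalized, and CPM per kb divides by the gene length in the table. Ratios and shares per heart were compared by 2-sided exact permutation of 24310 splits. List scores used log2(CPM + 0.1). Nuclear copies were found with BLAST 2.17.0 (at least 95% identity over 100 bases) in GRCm39. Procedures were tested on simulated data.

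The members and lists were chosen with earlier results of these data known. Genes were named as the 6 members, other mtDNA mRNAs where a ratio or share turned on them, Polg, nuclear copies, up to 3 genes with the smallest adjusted p in each list and the 5 most alike in pattern. Nothing in the labels states that replicates were separate litters or batches, so p-values measure the spread between these hearts. Libraries differed from one another beyond duplication (Spearman's rho 0.921 to 0.944 over 136 pairs). Alternatives were DESeq2 1.42.0, limma-voom (limma 3.58.1), other scalings and filters, a replicate block and leaving out hearts. Summing copies and dropping the TMM factor were chosen after seeing the data.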

Additional observations from a re-analysis of the deposited data

Results flagged for a closer look

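A heart was singled out where its gap to the nearest heart of its group was large for the range of the group (Dixon's test at 95%). This held for 14 of 66 sets of values, whereas chance gives about 1 in 20, and sets of ratios that share a gene are not independent.

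hMut replicate 6 stood apart in 5 sets. Its mt-Nd1 share was 7.52% of the counts on the 13 mtDNA mRNAs, with the next hMut heart at 10.8%. Its ratios per kilobase were 0.581 for mt-Nd4 to mt-Nd1 (next heart 0.446), 0.954 for mt-Nd5 to mt-Nd1 (0.573), 1.33 for mt-Nd5 to mt-Nd2 (1.08) and 17.5 for mt-Nd4l to mt-Nd3 (8.03).

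hMut replicate 8 was high in mt-Nd3 and mt-Nd4l. Its mt-Nd4l level was 685 CPM (next heart 400 CPM), its mt-Nd3 share 0.0798% (0.04997%), and its ratios of mt-Nd3 to mt-Nd1 and to mt-Nd2 were 0.0198 and 0.0374 (0.0127 and 0.0225).

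Among Ctrl hearts, replicate 3 had the highest mt-Nd4 level, 26452 CPM (next heart 21222 CPM). Replicate 2, with the lowest mt-Nd4l level, had the highest ratios of mt-Nd4 and mt-Nd5 to mt-Nd4l, 7.67 and 8.62 (next hearts 5.53 and 6.61). The chromosome 1 copies stood out in Ctrl replicate 8 for Gm28438 (817 CPM, next heart 299 CPM) and in Ctrl replicate 4 for Gm28439 (816 CPM, next heart 578 CPM).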

How the results depend on the processing

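The number of the 6 members called lower was 5 in the reported edgeR fit and 4 to 6 over 29 alternatives, and no member changed sign. mt-Nd2, mt-Nd4l, mt-Nd4 and mt-Nd5 passed in all 29, mt-Nd3 in 15 and mt-Nd1 in 1. Counts over all genes moved more. Against 749 (75.3% higher), 195 genes were called with the replicate block, 431 without hMut replicates 6 and 9, 463 without a filter on low counts, 1524 by DESeq2 and 2081 by limma-voom with quality weights. The count was 5672 without the TMM factor (97.8% higher) and 7493 with library sizes from cardiomyocyte genes (98.9% higher), settings that moved the median log2 fold change of all genes to 0.17 and 0.27. Leaving out 1 heart gave 395 (without hMut replicate 5) to 1792 (without hMut replicate 2), and other counts past 1.5 times the reported one were 1182 without hMut replicate 1, 400 to 497 without hMut replicate 6, 7 or 9 and 428 to 486 without Ctrl replicate 1, 2, 5, 6, 7 or 8. The cause was not tested. Of the member ratios, 4 passed, against 0 with medians, 0 with the replicate block, 7 without hMut replicates 6 and 9, and 4 to 7 when 1 heart was left out (7 without hMut replicate 6 or 8). The log2 difference of the mt-Nd4 to mt-Nd2 ratio turned to -0.000243 without hMut replicates 6 and 9. Of the 6 shares, 4 passed and 3 to 5 did so under the alternatives. The correlation of mt-Nd5 with the stress score was -0.80 (adjusted p = 0.225, exact permutation) without its 2 farthest hearts and -0.89 (adjusted p = 0.0565, exact permutation) with the median over the list. Nuclear complex I calls were 0, against 11 with cardiomyocyte library sizes, 1 by limma-voom and 0 to 1 when 1 heart was left out (1 without hMut replicate 2).

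Replicate numbers did not pair the hearts. The correlation of deviations between same-numbered hearts was between -0.225 and 0.339, over 0.1 for number 8 alone, so the replicate block results above stand only as values. Depth was not a limit for the members, since the lowest count of any member in any heart was 1125, and intervals from counting would cover counting error only. The limits lie in the spread between hearts and, for mt-Nd3, mt-Nd4l and mt-Nd4, in the sequence shared with chromosome 1.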

Other observations

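Marker lists of other heart cells were measured beside the members. Of 10 endothelial markers 2 were called higher in hMut hearts by edgeR, Cldn5 (log2 fold change 0.61 ± 0.16 SE, adjusted p = 0.0388) and Kdr (0.39 ± 0.10 SE, adjusted p = 0.0407). The endothelial count was 0 with the replicate block, without hMut replicates 6 and 9, and when Ctrl replicate 2, 5, 6, 7 or 8 or hMut replicate 3, 5, 7 or 9 was left out. It was 1 without Ctrl replicate 1, without hMut replicate 4 and with no filter on low counts.

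None of the 10 fibroblast, 10 myeloid, 10 lymphoid or 6 erythroid markers passed in the reported edgeR fit, with 7, 7, 4 and 0 at an unadjusted p under 0.05. DESeq2 and limma-voom each called 2 fibroblast markers and 1 myeloid marker higher, and edgeR did so without hMut replicate 2. Without hMut replicate 1, edgeR called 1 of each. These counts moved with the scaling. With cardiomyocyte library sizes 8 endothelial, 9 fibroblast, 8 myeloid and 4 lymphoid markers were called higher, and without TMM factors 6, 8, 7 and 3, while the erythroid count was 0 in both.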
